A study of Mus musculus with 9 samples.

Results

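The oligodendrocyte lineage was followed through 9 genes, 4 of oligodendrocyte precursors (Olig1, Olig2, Pdgfra and Sox10) and 5 of myelin (Mbp, Cnp, Mag, Mobp and Mog). Every probe set on the array that the platform annotation gives to 1 of these genes was taken, which was 23 of 22690 probe sets and 9 of 12394 named genes. Mbp had 8 probe sets, Sox10, Cnp and Mobp had 3 each, Pdgfra had 2, and Olig1, Olig2, Mag and Mog had 1 each.

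Oligodendrocytes arise from dividing precursors that carry the receptor Pdgfra and the transcription factors Olig1, Olig2 and Sox10. On differentiating, these precursors leave the cell cycle, make myelin proteins such as Mbp, Mag and Mog and wrap axons. In the mouse cortex the precursors spread before birth and in the first days after it, and most myelin is laid down later.

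RNA came from layer IV of the barrel cortex, the whisker area of the somatosensory cortex, cut out by laser microdissection from C57BL/6 mice at postnatal day 5. Their genotypes at Gap43 were wild type (WT), heterozygote (HZ) and knockout (KO). This gene encodes GAP-43, a growth cone phosphoprotein. There were 3 mice of each genotype and 1 Affymetrix array per mouse, so n = 3 per genotype throughout. The labels do not say which cells lack the gene or which part of it was removed, and no other allele or treatment is given for any group.

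A value is the deposited MAS5 signal of a probe set, a linear fluorescence intensity in arbitrary units. Signals of different probe sets are not comparable with each other, so each probe set was compared across arrays only. Sums of signal over a marker list are also given, and the brightest probe sets weigh most in them. Changes are differences of log2(signal + 16) between genotypes, each with its standard error (SE) or 95% interval from limma, and adding 16 makes the change of dim probe sets look smaller than it is. Testing was limited to the brightest 60% of probe sets by mean log2 signal (13576 probe sets of 8503 named genes, mean signal of about 118 or more). Benjamini-Hochberg adjustment ran over all of these, with a threshold of 0.05. The number of arrays limits the precision, and an exact permutation test of 3 arrays against 3 cannot give a p below 0.1.

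The Gap43 signal was 4294 to 7089 on the WT arrays, 4389 to 5039 on the HZ arrays and 979 to 1930 on the KO arrays. It was the 1 probe set that passed the threshold in KO against WT (log2 change -1.95, limma adjusted p = 0.0173). The mean of each array after trimming was 500.2, and the 3'/5' signal ratio of the Gapdh control probe sets was 11.5 to 27.9, highest on HZ 2 and WT 2.

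All 4 precursor genes had a probe set bright enough to be tested, and so had Mbp, Cnp and Mag, which made 12 probe sets of 7 genes. Mobp and Mog lay below the filter with all their probe sets. The 3 Mobp probe sets read between 3.33 and 33.8 on all 9 arrays, and the single Mog probe set read between 2.16 and 6.35. In 2 of the Mobp probe sets every HZ array was above every WT array, as for 9.02% of all probe sets without the filter, at signals of no more than 14.8. Mobp encodes a protein of compact myelin, and Mog a protein of the outermost myelin layer. Of the 28 genes on the array from a list of myelin and mature oligodendrocyte markers 12 lay below the filter, and of the 17 from a list of precursor markers 4 did, where 8503 of all 12394 named genes lay above it.

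No member passed the adjusted threshold in any comparison of genotypes. In KO against WT, 0 of 12 member probe sets had an adjusted p under 0.05, against 0.00737% of all probe sets tested, and the smallest limma adjusted p was 0.575. In HZ against WT the count was 0 of 12 against 0% of all (smallest adjusted p = 0.789), and in KO against HZ it was 0 of 12 against 0.00737% (smallest adjusted p = 0.580). At an unadjusted p under 0.05 there were 2 of 12 in each comparison, where the share over all probe sets was 8.03% in KO against WT, 6.22% in HZ against WT and 7.73% in KO against HZ. In KO against WT both were lower (Olig1 and Cnp), where 3.59% of all probe sets were lower and 4.43% higher by that rule. In HZ against WT Olig2 was higher and 1 Mbp probe set lower, against 4.06% higher and 2.16% lower of all. In KO against HZ Olig1 was lower and the same Mbp probe set higher, against 3.76% lower and 3.96% higher of all. Each of these 6 values left that side of the unadjusted threshold when at least 1 of the arrays was left out. Olig2 in HZ against WT also did so with the arrays set to 1 common median or quantile normalized, and the Mbp probe set in KO against HZ with no intensity trend or with only the 2 genotypes fitted. The arrays of the genotypes did not overlap for 0 of 12 in KO against WT (13.7% of all), 3 of 12 in HZ against WT (12.9% of all) and 2 of 12 in KO against HZ (14% of all). In each comparison 6 of the 12 probe sets had a change below 0, against 46.3% of all in KO against WT, 44.7% in HZ against WT and 53.4% in KO against HZ. With no filter, 0 of the 23 member probe sets passed the adjusted threshold in any comparison, and 0% of all. At an unadjusted p under 0.05 there were then 2 of 23 in KO against WT (7.22% of all), 3 of 23 in HZ against WT (6% of all) and 1 of 23 in KO against HZ (7.19% of all). The 3 comparisons share arrays, so their values are not independent of each other.

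**Figure D1:**
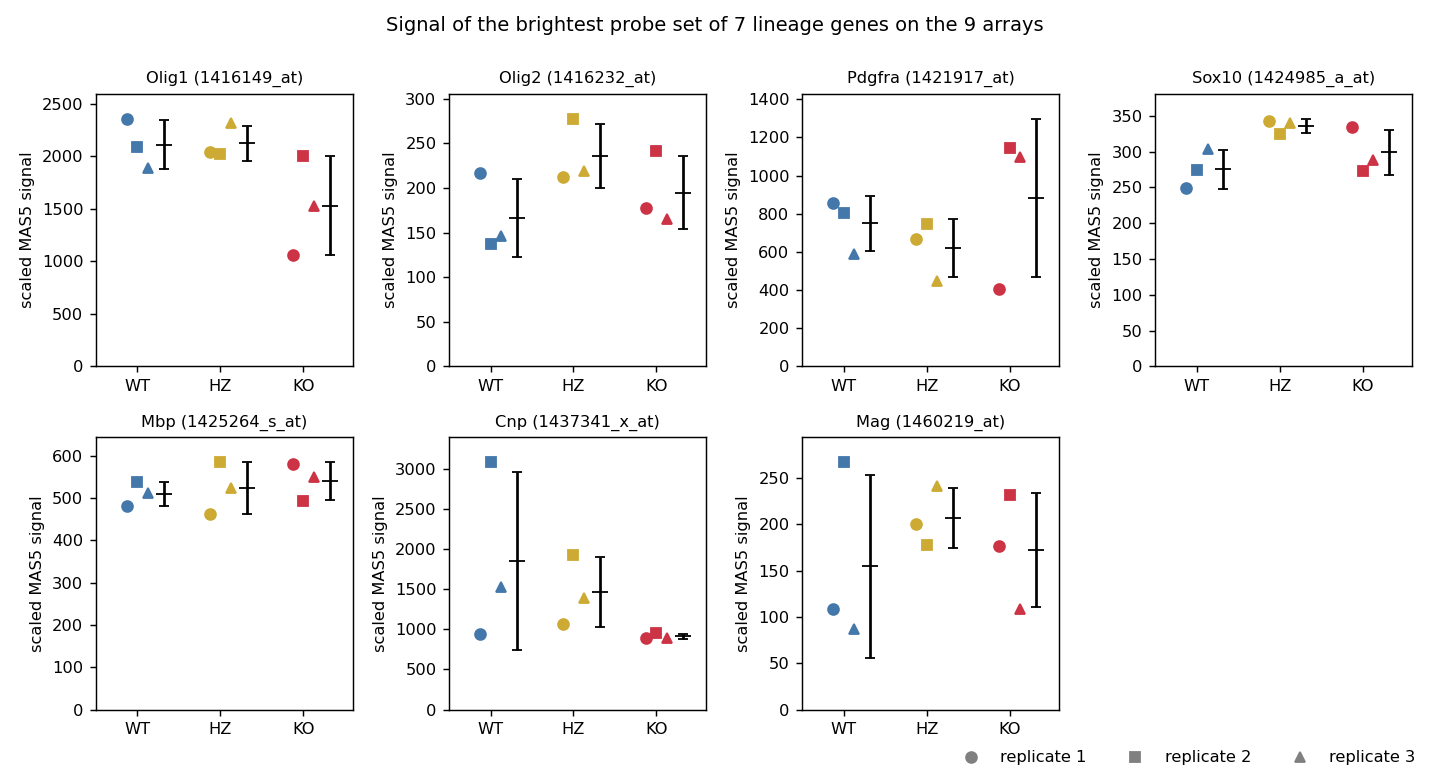
Signal (linear, arbitrary units) of the brightest probe set of the 7 tested genes on each of the 9 arrays, by genotype. Points are arrays, with circle, square and triangle for replicates 1, 2 and 3, and black bars are the mean ± SD of 3 arrays. Olig1 was lowest on KO 1 (1059) and KO 3 (1525), and Cnp was highest on WT 2 (3087).

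Taken by group, with the brightest probe set of each gene and no filter, the median log2 change of the 4 precursor genes was 0.11 in KO against WT, 0.14 in HZ against WT and -0.22 in KO against HZ. For the 5 myelin genes these medians were 0.08, 0.10 and -0.29, and over all genes 0.03, 0.06 and -0.03. Mobp and Mog are among the 5 myelin genes, although they lie below the filter. The myelin median in HZ against WT was the value of Mog, which read only 2.16 to 6.35. With 1 array left out at a time the precursor medians spanned -0.041 to 0.15, 0.11 to 0.17 and -0.26 to -0.16, and the myelin medians 0.0076 to 0.12, 0.025 to 0.17 and -0.51 to -0.017. The last of these was -0.017 without KO 3 and -0.51 without KO 2. In bulk tissue, fewer cells of a type and less RNA per cell cannot be told apart, which holds for every value here.

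**Figure D2:**
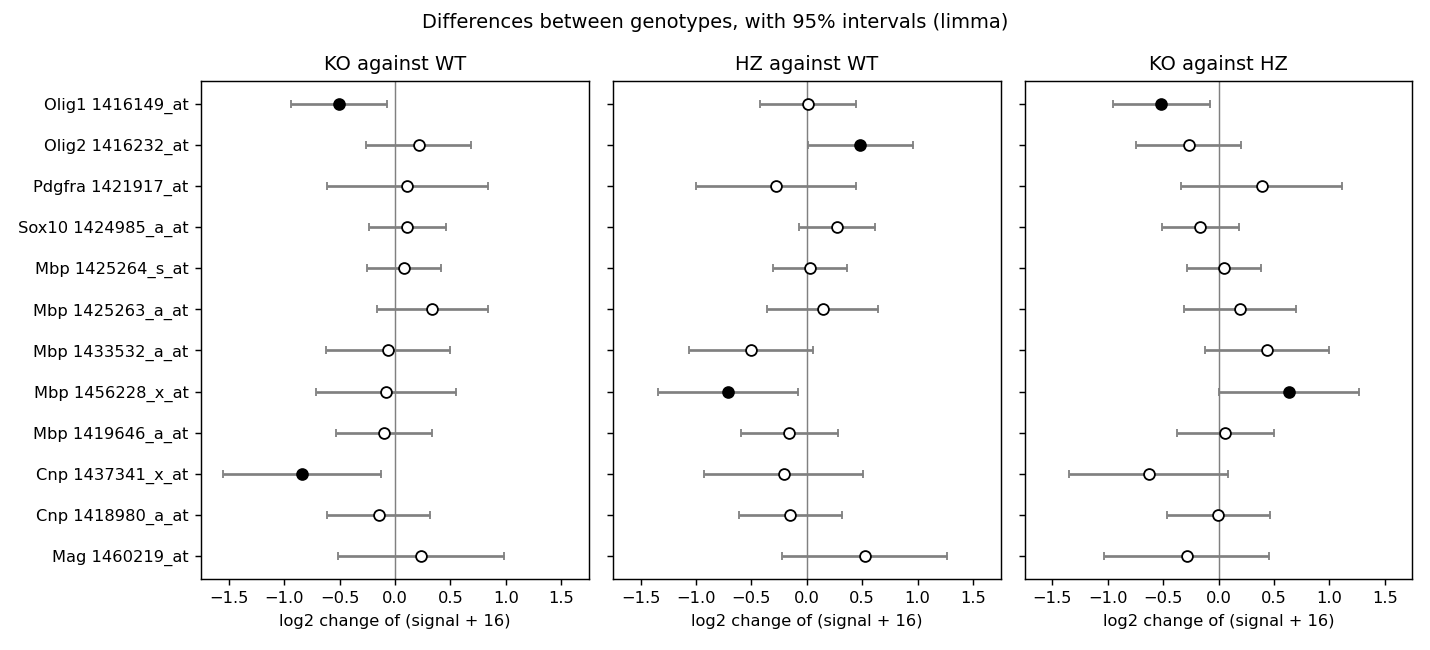
Log2 change of each of the 12 tested member probe sets in the 3 comparisons of genotypes, with 95% intervals from limma (3 arrays per genotype). Filled points have an unadjusted p under 0.05, and none has an adjusted p under 0.05.

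Olig1 encodes a helix-loop-helix transcription factor of the oligodendrocyte lineage and lies, like its neighbour Olig2 and Gap43 itself, on chromosome 16. Its signal was 2357, 2087 and 1890 on WT 1, 2 and 3, 2040, 2019 and 2315 on the HZ arrays and 1059, 2004 and 1525 on the KO arrays. All KO arrays were below all HZ arrays, as for 7.35% of all probe sets tested, while KO 2 lay within the WT range. The means were 2111 ± 234 in WT, 2125 ± 165 in HZ and 1529 ± 473 in KO (SD, n = 3). The log2 change was -0.50 in KO against WT (SE 0.20, 95% interval -0.94 to -0.07, limma adjusted p = 0.576), a signal 1.42-fold lower. In KO against HZ it was -0.51 (SE 0.20, adjusted p = 0.580), and in HZ against WT it was 0.01 (adjusted p = 0.992).

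The size of the Olig1 difference depended on KO 1, the lowest of the 9 arrays. Without it the change was -0.26 against WT and -0.28 against HZ. Without KO 2, the KO array with the highest Olig1 signal, it was -0.72 and -0.73.

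Olig2, the related factor that specifies the lineage, gave another order of the genotypes than Olig1. Its signal was 217, 137 and 146 on the WT arrays, 212, 278 and 219 on the HZ arrays and 177, 241 and 165 on the KO arrays. WT 1 lay among the HZ values, and KO lay between the other genotypes on average. The means were 167 ± 43.8 in WT, 236 ± 36.1 in HZ and 195 ± 41.0 in KO (SD, n = 3). The log2 change was 0.48 in HZ against WT (95% interval 0.01 to 0.96, limma adjusted p = 0.789), 0.21 in KO against WT (adjusted p = 0.837) and -0.27 in KO against HZ (adjusted p = 0.832). With the arrays set to 1 common median, the HZ against WT value was 0.39. It ranged from 0.37 to 0.67 when 1 array at a time was left out.

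Pdgfra, the receptor through which platelet-derived growth factor keeps precursors dividing, had the widest spread among the KO arrays of the 4 precursor genes, with a coefficient of variation of 47.1%. Its signal was 858, 803 and 586 on the WT arrays, 667, 745 and 449 on the HZ arrays and 404, 1144 and 1100 on the KO arrays. KO 1 was the lowest of all 9 arrays and KO 2 and KO 3 were the highest, so the KO group spanned both other groups. The log2 change in KO against WT was 0.11 (95% interval -0.61 to 0.84, limma adjusted p = 0.951), and it was 0.59 without KO 1 and -0.14 without KO 2. In HZ against WT it was -0.28 (adjusted p = 0.873), and -0.07 without HZ 3. It was 0.39 in KO against HZ (adjusted p = 0.840), with values from 0.14 without KO 2 to 0.87 without KO 1. The second Pdgfra probe set was below the filter, at 31.1 to 61.2 in WT, 29.4 to 94.8 in HZ and 73.9 to 110 in KO. Every KO array was above every WT array there, as for 7.73% of all probe sets without the filter, with a log2 change of 0.77 (SE 0.35, limma adjusted p = 0.691). Across the 9 arrays the 2 probe sets of Pdgfra had an r of -0.04.

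Sox10, the factor that drives myelin genes in committed cells, had the narrowest range of the 4 precursor genes. The signal of its brightest probe set was 249, 275 and 303 on the WT arrays, 343, 324 and 340 on the HZ arrays and 334, 274 and 289 on the KO arrays. Every HZ array was above every WT array, as for 8.51% of all probe sets tested, while KO overlapped both. The log2 change in HZ against WT was 0.27 (95% interval -0.07 to 0.62, limma adjusted p = 0.790), a signal 1.21-fold higher. The changes in KO against WT (0.11, adjusted p = 0.891) and KO against HZ (-0.16, adjusted p = 0.865) were smaller. The other Sox10 probe sets were below the filter, at 24.3 to 175 and 43.4 to 210 over the 9 arrays, and ran opposite to each other (r = -0.81 across arrays).

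Mbp encodes myelin basic protein, which compacts the myelin sheath, and its brightest probe set was nearly level across genotypes. The signal was 482, 539 and 511 on the WT arrays, 461, 584 and 523 on the HZ arrays and 580, 493 and 548 on the KO arrays. The highest array was 1.27 times the lowest, the smallest ratio among the brightest probe sets of the tested members. The log2 change was 0.08 in KO against WT (95% interval -0.26 to 0.41, limma adjusted p = 0.918), 0.03 in HZ against WT (-0.31 to 0.36, adjusted p = 0.975) and 0.05 in KO against HZ (-0.28 to 0.39, adjusted p = 0.961).

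The 8 Mbp probe sets did not give 1 pattern. Probe set 1456228_x_at read 226, 278 and 205 on the WT arrays, 78.0, 202 and 158 on the HZ arrays and 300, 203 and 175 on the KO arrays. All HZ arrays were below all WT arrays, as for 4.39% of all probe sets tested. The log2 change in HZ against WT was -0.71 (95% interval -1.34 to -0.08, limma adjusted p = 0.789), a signal 1.64-fold lower, and without HZ 1 it was -0.36. In KO against HZ it was 0.63 (SE 0.29, adjusted p = 0.645), and without HZ 1 it was 0.28.

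Probe set 1433532_a_at of Mbp read 201, 307 and 187 on the WT arrays, 136, 160 and 173 on the HZ arrays and 283, 250 and 140 on the KO arrays. Here too HZ and WT did not overlap, with a log2 change of -0.50 (SE 0.26, limma adjusted p = 0.790). A further pair of Mbp probe sets below the filter was lower on every HZ array than on any WT array, as for 3.81% of all probe sets without the filter. Probe set 1436201_x_at read 117, 174 and 72.3 in WT, 17.7, 60.2 and 11.5 in HZ and 102, 99.7 and 27.6 in KO, with a log2 change in HZ against WT of -1.66 (SE 0.49, limma adjusted p = 0.799 without the filter). Probe set 1454651_x_at read 56.9, 49.3 and 71.9 in WT, 3.16, 24.3 and 6.26 in HZ and 58.5, 41.2 and 7.98 in KO, with a log2 change of -1.53 (SE 0.41, adjusted p = 0.799). In both, KO 1 and KO 2 were near the WT arrays and KO 3 was near the HZ arrays.

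These 4 Mbp probe sets correlated with each other at r = 0.73 to 0.89 over the 9 arrays. This is a description, since the annotation gives them to the same gene and they were read on the same arrays. Which sequences each of them reads was not tested. The brightest Mbp probe set correlated with them at r = 0.15 to 0.60. Of the other 3, 1425263_a_at ranged from 246 to 469, 1419646_a_at from 118 to 175 and 1451961_a_at, below the filter, from 33.1 to 95.4, and none of them separated HZ from WT. Their log2 changes in HZ against WT were 0.14, -0.16 and -0.23, with limma adjusted p of 0.904, 0.877 and 0.896, the last without the filter.

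**Figure D3:**
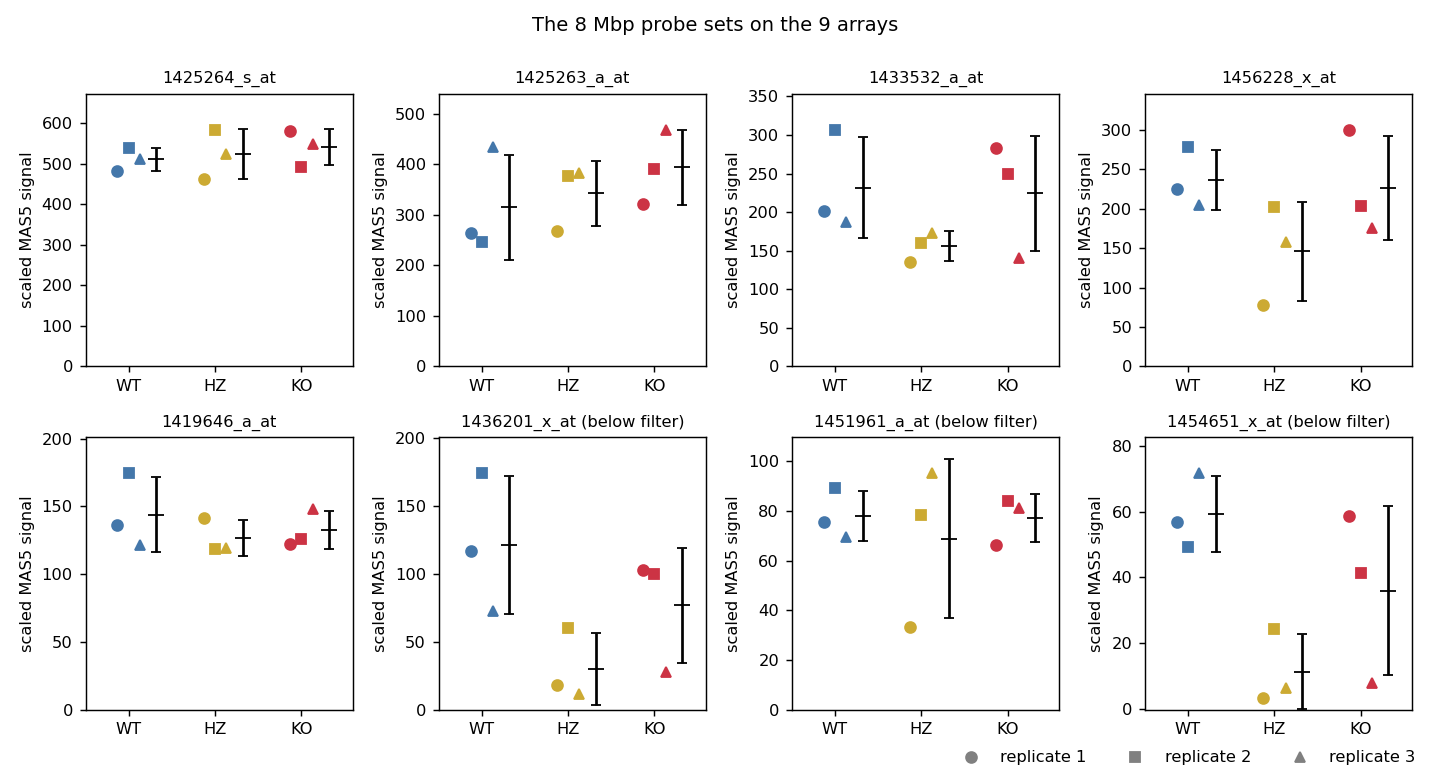
Signal (linear, arbitrary units) of the 8 Mbp probe sets on each of the 9 arrays by genotype, with those below the filter marked. Points are arrays, with circle, square and triangle for replicates 1, 2 and 3, and black bars are the mean ± SD of 3 arrays. In 1433532_a_at, 1456228_x_at, 1436201_x_at and 1454651_x_at every HZ array was below every WT array, and the brightest, 1425264_s_at, stayed between 461 and 584.

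Cnp encodes the cyclic nucleotide phosphodiesterase of oligodendrocytes, found in the myelin channels that hold cytoplasm and made before the compact myelin proteins. The signal of its brightest probe set was 940, 3087 and 1530 on the WT arrays, 1072, 1932 and 1386 on the HZ arrays and 895, 950 and 892 on the KO arrays. KO was below every HZ array, as for 7.35% of all probe sets tested, but KO 2 was above WT 1. The KO arrays were close together (coefficient of variation 3.59%), whereas the WT arrays had a coefficient of variation of 59.9%. The means were 1852 ± 1109 in WT, 1464 ± 435 in HZ and 913 ± 32.8 in KO (SD, n = 3).

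In KO against WT the log2 change of Cnp was -0.84 (SE 0.33, 95% interval -1.56 to -0.12, limma adjusted p = 0.575), a signal 1.79-fold lower. Without WT 2 it was -0.39, and without WT 1 it was -1.24. In KO against HZ it was -0.63 (SE 0.33, adjusted p = 0.694), and without HZ 2 it was -0.41. WT 2 and HZ 2, the arrays of highest Cnp signal, also had the highest Gapdh 3'/5' ratios, 19.5 and 27.9. With that ratio as a term in the model the KO against WT change was -0.98 (adjusted p = 0.358).

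The second tested Cnp probe set differed less between genotypes. Its signal was 186, 261 and 193 on the WT arrays, 156, 235 and 183 on the HZ arrays and 186, 158 and 228 on the KO arrays. WT 2 and HZ 2 were again the highest of their groups, but KO overlapped both. The log2 change was -0.15 in KO against WT (limma adjusted p = 0.891) and -0.15 in HZ against WT (adjusted p = 0.892). Across the 9 arrays the pair of Cnp probe sets had a Pearson r of 0.68 and a Spearman rho of 0.37. The third, below the filter, ranged from 13.6 to 89.4.

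Mag encodes the myelin-associated glycoprotein, a lectin of the membrane next to the axon. Its signal was 109, 267 and 87.3 on the WT arrays, 200, 178 and 242 on the HZ arrays and 177, 232 and 109 on the KO arrays. WT 2 was the highest of the 9 arrays and the other WT arrays were at the low end, so all groups overlapped. The log2 change was 0.52 in HZ against WT (95% interval -0.23 to 1.27, limma adjusted p = 0.803), 0.23 in KO against WT (adjusted p = 0.893) and -0.29 in KO against HZ (adjusted p = 0.897). The HZ against WT value was 0.96 without WT 2 and 0.23 without WT 3, and with array weights it was 0.91 (adjusted p = 0.233).

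Some arrays stood at the ends of the range more often than others. WT 2 was the highest of the 9 arrays in 5 of the 12 tested member probe sets, all of Mbp, Cnp or Mag. Over all tested probe sets it was the highest in 2089 of 13576. HZ 1 was the lowest in 4 of 12, all of Mbp or Cnp, and over all in 894 of 13576. Mbp has 5 of the 12 and Cnp 2, so these counts repeat the same genes. WT 2 also had the highest summed signal of 16 microglia markers (4617, against 2018 to 3014 on the other arrays) and of 28 myelin and mature oligodendrocyte markers (14106, against 12310 to 12753). Csf1r (mean signal 816 over the 9 arrays) weighs most in the microglia sum and Qdpr (5492) in the myelin sum. Of the 16 microglia markers 9 lay below the filter, and of the 28 myelin markers 12 did. The part of these array differences in the member values was not tested.

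Correlations between the members were then taken across the 9 arrays. Of the 21 pairs of the 7 tested genes, 0 had a correlation past the threshold after adjustment over the pairs (exact permutation tests). The smallest p belonged to Pdgfra and Sox10, which ran opposite to each other with Pearson r = -0.71 (exact permutation p = 0.0371, adjusted p = 0.779) and Spearman rho = -0.77 (exact permutation p = 0.0214, adjusted p = 0.449). Without HZ 3 and KO 1, the arrays farthest from the median of Pdgfra, r was -0.54. The neighbours Olig1 and Olig2 had r = 0.31 (exact permutation p = 0.442, adjusted p = 0.824) and rho = 0.25 (exact permutation p = 0.521, adjusted p = 0.982), and r was 0.24 without KO 1 and KO 3. Mbp and Cnp had r = 0.28 (exact permutation p = 0.472, adjusted p = 0.824) and rho = 0.08 (exact permutation p = 0.843, adjusted p = 0.982), and r was 0.06 without HZ 1 and HZ 2. With each genotype's mean taken out, which is given as a description, r was 0.52 for Olig1 and Olig2 and 0.63 for Mbp and Cnp. Taken the same way it was 0.74 for Olig1 and Pdgfra (0.30 over the 9 arrays) and -0.84 for Olig1 and Sox10 (-0.30 over the 9 arrays). For Pdgfra and Sox10 it was -0.83, and for Olig2 and Sox10 -0.70 (0.17 over the 9 arrays). These are among the largest of the 21 such values. Without KO 1 and KO 3, and with the genotype means left in, r was -0.18 for Olig1 and Pdgfra and -0.21 for Olig1 and Sox10.

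**Figure D4:**
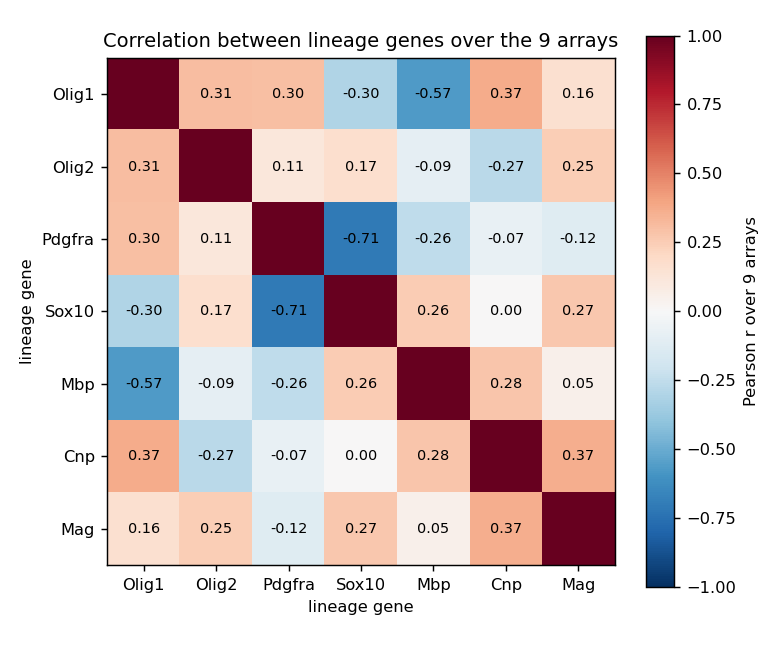
Pearson correlation of log2(signal + 16) between the 7 tested genes over the 9 arrays, with the brightest probe set of each gene. The values run from -0.71 for Pdgfra and Sox10 to 0.37 for Olig1 and Cnp and for Cnp and Mag, and none of the 21 passed after adjustment.

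The genes whose signal followed each member most closely over the 9 arrays, among the other 8502 tested genes, were not members. They were Rad17 (r = 0.95) and Ptges (0.91) for Olig1, Lhx4 (0.93) and Zik1 (0.93) for Olig2, Traf2 (0.94) and St6galnac5 (0.91) for Pdgfra, and Sox7 (0.97) and Txndc16 (0.97) for Sox10. For Mbp they were Pkdcc (0.95) and Pigt (0.95), for Cnp Fkbp1b (0.97) and Selenow (0.95), and for Mag Fkbp7 (0.95) and Maz (0.94). They are the highest of 8502 values over 9 points and are given as a description. For Olig1 they rested on KO 1 and KO 3, without which r was 0.55 for Rad17 and 0.40 for Ptges.

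Other genes of the lineage gave the same count as the members: 0 of the tested genes in 6 further lists had a limma adjusted p under 0.05 in any comparison. Each gene was read by its brightest probe set, and the median log2 change of all tested genes was 0.02 in KO against WT, 0.04 in HZ against WT and -0.03 in KO against HZ. Among 13 tested markers of precursors, 1 was higher and 1 lower in KO against WT at an unadjusted p under 0.05, with a median log2 change of 0.09. Of all probe sets tested, 4.43% were higher and 3.59% lower by that rule. Ptprz1, a receptor phosphatase on precursors and radial glia, had a log2 change of -0.41 ± 0.17 (SE, limma adjusted p = 0.588). Its signal was 2841, 2461 and 3061 on the WT arrays, 2763, 2662 and 2470 on the HZ arrays and 1736, 2753 and 1913 on the KO arrays. KO 1 and KO 3 were the low arrays, as for Olig1, and all 3 Ptprz1 probe sets were lower on average in KO (-0.41, -0.75 and -0.71). Cacng4, an auxiliary subunit of AMPA receptors, differed by 0.43 (SE 0.19, adjusted p = 0.610), and Epn2, an endocytic adaptor, by 0.32 (SE 0.16, adjusted p = 0.669). In both, KO was above every WT array, and KO and WT did not overlap for 13.7% of all probe sets tested. The second Epn2 probe set gave 0.59, with overlapping arrays. Pcdh15, a protocadherin, was higher in HZ, by 0.46 over WT (SE 0.20, adjusted p = 0.789), and KO was lower than HZ by a log2 change of -0.45 (SE 0.20, adjusted p = 0.627).

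Of the 7 tested markers of committed precursors and newly formed oligodendrocytes, 1 was higher and 1 lower in KO against WT at an unadjusted p under 0.05. Over all probe sets tested these shares were 4.43% and 3.59%. The median log2 change of the 7 was 0.16. Sirt2, a deacetylase abundant in oligodendrocytes, read 418, 354 and 260 on the WT arrays, 163, 170 and 114 on the HZ arrays and 70.3, 89.0 and 339 on the KO arrays. Every HZ array was below every WT array, as for 4.39% of all probe sets tested, and KO 3 lay within the WT range. The log2 change was -1.26 in KO against WT (SE 0.41, limma adjusted p = 0.518), -1.89 without KO 3, and -1.12 in HZ against WT (SE 0.41, adjusted p = 0.789). Dynll2, a dynein light chain, differed by 0.32 in KO against WT (SE 0.14, adjusted p = 0.622), but its second probe set gave -0.14. Fyn, a kinase that signals from axon contact to Mbp translation, differed by 0.22 (SE 0.13, adjusted p = 0.726), and its second probe set by 0.05. Itpr2, a calcium release channel, differed by -0.45 in KO against HZ (SE 0.23, adjusted p = 0.673). Its other probe sets, all below the filter, gave 0.36, -0.38, -0.62 and -0.60.

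Of the 16 tested markers of myelin and mature oligodendrocytes, 1 was higher and 1 lower in KO against WT at an unadjusted p under 0.05, 11 had a change below 0, and the median log2 change was -0.12. Of all probe sets tested, 4.43% were higher and 3.59% lower by that rule and 46.3% had a change below 0. Cryab, a small heat shock protein that astrocytes also make, read 770, 1086 and 567 on the WT arrays, 913, 857 and 981 on the HZ arrays and 209, 366 and 538 on the KO arrays. Every KO array was below every WT and HZ array. Of all probe sets tested, 13.7% did not overlap between KO and WT, and 7.35% had every KO array below every HZ array. The log2 change of Cryab was -1.14 in KO against WT (SE 0.29, limma adjusted p = 0.435) and -1.36 in KO against HZ (adjusted p = 0.250). Of its 2 probe sets below the filter 1 gave -1.96 and the other 0.12 in KO against WT. Ndrg1, a protein of myelinating cells, differed by 0.50 in KO against WT (SE 0.19, adjusted p = 0.541). Its other tested probe sets gave 0.64 and 0.08, and those below the filter -0.85 and -0.02. Apod, a lipocalin that is also made by cells of the vessels and meninges, read 151, 373 and 253 on the WT arrays, 36.8, 111 and 109 on the HZ arrays and 166, 158 and 99.5 on the KO arrays. Every HZ array was below every WT array, as for 4.39% of all probe sets tested. The log2 change of Apod was -1.46 in HZ against WT (SE 0.37, adjusted p = 0.789) and -0.75 in KO against WT (adjusted p = 0.647).

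Among 13 tested enzymes of myelin lipids, 0 were higher and 1 was lower in KO against WT at an unadjusted p under 0.05, with a median log2 change of -0.0021. The shares of all probe sets tested were 4.43% higher and 3.59% lower. Degs1, which makes ceramide from dihydroceramide, was the lower 1, at -0.56 (SE 0.23, limma adjusted p = 0.581), and its second probe set gave -0.05. Cers2, a ceramide synthase of very long chains, differed by 0.48 (SE 0.23, adjusted p = 0.647), and by 0.44 in KO against HZ (SE 0.23, adjusted p = 0.699). Smpd1, the acid sphingomyelinase, differed by -0.30 in KO against WT (SE 0.20, adjusted p = 0.741), and Elovl5, a fatty acid elongase, by 0.21 in HZ against WT (SE 0.15, adjusted p = 0.809).

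Of 22 tested transcription regulators of the lineage, 4 were higher and 0 lower in KO against WT at an unadjusted p under 0.05, 5 had a change below 0, and the median log2 change was 0.17. The shares of all probe sets tested were again 4.43% higher, 3.59% lower and 46.3% below 0. Of the 22, 3 were higher and 2 lower in KO against HZ, and 10 had a change below 0, where the shares of all were 3.96%, 3.76% and 53.4%. The 3 of smallest p in KO against WT were Sox6, Hes5 and Id4, which act in progenitors to hold back oligodendrocyte differentiation. Sox6 read 413, 305 and 387 on the WT arrays and 448, 657 and 520 on the KO arrays (log2 change 0.53, SE 0.19, limma adjusted p = 0.537). The 2 groups did not overlap, as for 13.7% of all probe sets tested. Hes5 differed by 0.62 in KO against WT (SE 0.25, adjusted p = 0.581) and Id4 by 0.49 (SE 0.22, adjusted p = 0.622). Both tested Hes5 probe sets and all 3 of Id4 were above 0 in that comparison. In HZ against WT, E2f1, a cell cycle factor, differed by 0.81 (SE 0.24, adjusted p = 0.789), and its second probe set, below the filter, by 0.0070. In KO against HZ, Sox5, a partner of Sox6, differed by 1.31 (SE 0.39, adjusted p = 0.450), and by 0.72 without HZ 2. Its other probe sets, all below the filter, gave -0.15, -0.19 and -0.11.

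Among 28 tested ligands and receptors that act on precursors, 1 was higher and 0 lower in KO against WT at an unadjusted p under 0.05, with a median log2 change of 0.11. The shares of all probe sets tested were 4.43% higher and 3.59% lower. Pdgfc, a ligand of Pdgfra, read 246, 312 and 276 on the WT arrays and 825, 391 and 352 on the KO arrays, a log2 change of 0.78 (SE 0.35, limma adjusted p = 0.622). It was 0.40 without KO 1, the highest array, and its second probe set gave 0.06. Ptch1, the hedgehog receptor, differed by -0.45 (SE 0.22, adjusted p = 0.647) and Fgfr3, a fibroblast growth factor receptor, by -0.32 (SE 0.17, adjusted p = 0.672). Their second probe sets, below the filter, gave 0.20 for Ptch1 and 0.02 for Fgfr3. Fgfr3 is also on the list of astrocyte markers. Cxcl12, a chemokine, differed by -0.73 in HZ against WT (SE 0.22, adjusted p = 0.789) and by 1.06 in KO against HZ (SE 0.22, adjusted p = 0.250). Its second tested probe set went the other way, with 0.50 and -0.13.

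Markers of other cell types that layer IV tissue can hold were read on the same arrays, and 0 of them had an adjusted p under 0.05 in any comparison. Of 16 tested astrocyte markers, 7 were lower and 0 higher in KO against WT at an unadjusted p under 0.05, and 13 had a change below 0, with a median log2 change of -0.30. Of all probe sets tested 3.59% were lower and 4.43% higher by that rule, and 46.3% had a change below 0. Gja1, the astrocyte gap junction protein connexin 43, had the smallest p among them (log2 change -1.04, limma adjusted p = 0.114), and with array weights its adjusted p was 0.0316. The summed signal of 20 astrocyte markers was 34405 to 43534 on the WT arrays, 34546 to 37562 on the HZ arrays and 28891, 37108 and 29013 on KO 1, KO 2 and KO 3. Fabp7 (mean signal 11449 over the 9 arrays), Cst3 (6707), Glul (4545) and Gja1 (3560) weigh most in this sum. KO 1 and KO 3, the arrays of lowest Olig1 and Ptprz1 signal, thus also had the lowest astrocyte sums, and the part of this in the Olig1 value was not tested.

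Of 7 tested microglia markers, 1 was lower and 0 higher in KO against WT at an unadjusted p under 0.05. A change below 0 was seen in 6 of the 7, with a median of -0.51. Ctss, a lysosomal protease, differed by -0.88 (limma adjusted p = 0.460). Of all probe sets tested, 46.3% had a change below 0 in KO against WT. At an unadjusted p under 0.05, 4.43% of all were higher and 3.59% lower. The summed signal of 16 microglia markers was 2506, 4617 and 2406 on WT 1, WT 2 and WT 3 and 2018, 2636 and 2553 on the KO arrays, so the KO arrays overlapped the WT arrays other than WT 2. Of 13 endothelial and mural markers 1 was lower and 0 higher at an unadjusted p under 0.05, and 11 were below 0, with a median of -0.10. Slc2a1, the glucose transporter of brain vessels, was at -0.57 (adjusted p = 0.537), and its other tested probe sets were at -0.09 and -0.65. Of 9 meningeal and fibroblast markers 1 was higher and 0 lower at an unadjusted p under 0.05, and 7 were above 0, with a median of 0.10. Col6a1, a collagen, was at 0.54 (adjusted p = 0.622). Of 17 neuron markers 2 were higher and 1 lower at an unadjusted p under 0.05, and 9 were below 0, with a median of -0.06 and with Rorb, a nuclear receptor of layer IV neurons, at -0.66 (adjusted p = 0.435). Of 15 progenitor and proliferation markers 2 were higher and 0 lower by that rule, and 5 were below 0, with a median of 0.05 and with Nes, an intermediate filament of progenitors, at 0.40 (adjusted p = 0.594), and its second tested probe set at 0.05.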

How the data were processed

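The authors deposited linear probe set intensities. The submitters' processing notes name MAS5 and Affymetrix Expression Console, with no version and with the scaling method not given in the sources used here. The labels' protocols give a 2-cycle cDNA synthesis, an amplification for small RNA amounts, and MAS5 intensities of dim probe sets are noisy. Each array is a separate mouse per the labels, grouped by the genotype in its title.

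The analysis used log2(signal + 16), without the 64 control probe sets, and the brightest 60% of the rest. In R 4.3.3, limma 3.58.1 fitted genotype alone on the 9 arrays together (eBayes with an intensity trend, 6 residual and 6.94 prior degrees of freedom). Tests were 2-sided and adjusted over 13576 probe sets. Correlations used exact permutation tests over 9 arrays.

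The platform annotation gave 20393 probe sets 1 symbol, 691 several and 1555 none. Chromosomes come from the RefSeq table (assembly GRCm38.p6). The members, the 12 further gene lists and the settings were chosen with earlier results of these data known. Genes were named by a rule. It took every member probe set and the 2 genes most correlated with each tested member. From each list of oligodendrocyte genes it took the 3 with the lowest p between KO and WT and the 1 with the lowest p in each other comparison, and from each other list the 1 with the lowest p between KO and WT.

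The alternatives were other pseudocounts, filters and scalings, no intensity trend, array weights, a replicate block, the Gapdh 3'/5' ratio as a term, only the genotypes compared, and each array left out in turn. Same-numbered arrays of different genotypes had correlations of their deviations from -0.26 to 0.11, so the numbers were not taken to pair the mice.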

Additional observations from a re-analysis of the deposited data

How the results depend on the processing

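The count of member probe sets past the threshold was 0 in each comparison under all alternatives run, including each array left out. With a replicate block it was also 0, and the smallest member adjusted p was 0.548 in KO against WT, 0.845 in HZ against WT and 0.653 in KO against HZ. With the block neither Olig2 in HZ against WT nor Mbp 1456228_x_at in KO against HZ was at an unadjusted p under 0.05. Over all probe sets, the count past the threshold went from 1 to between 0 and 5 in KO against WT, from 0 to between 0 and 3 in HZ against WT (5 and 3 with array weights) and from 1 to between 0 and 2 in KO against HZ (2 with the block). With 1 array left out, the precursor median in KO against WT spanned -0.041 to 0.15. Changes near 0 turned sign. With the arrays set to 1 median these were Olig1 (-0.082) and Mbp 1425264_s_at (-0.063) in HZ against WT and Cnp 1418980_a_at (0.028) in KO against HZ, the last also with quantile normalization (0.034) and array weights (0.093). Array weights turned Mbp 1433532_a_at (0.020) and Mbp 1419646_a_at (0.026) in KO against WT and Mbp 1425263_a_at (-0.076) in HZ against WT. The cause was not tested. Leaving out 1 array gave changes in KO against WT of -0.14 to 0.59 for Pdgfra, -0.054 to 0.67 for Mag, -0.25 to 0.22 for Mbp 1433532_a_at, -0.29 to 0.073 for Mbp 1456228_x_at and -0.20 to 0.035 for Mbp 1419646_a_at. In HZ against WT they were -0.064 to 0.094 for Olig1, -0.61 to 0.24 for Cnp 1437341_x_at, -0.052 to 0.11 for Mbp 1425264_s_at and -0.0039 to 0.39 for Mbp 1425263_a_at. In KO against HZ they were -0.034 to 0.13 for Mbp 1425264_s_at, -0.016 to 0.14 for Mbp 1419646_a_at and -0.13 to 0.15 for Cnp 1418980_a_at.

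Correlations between members turned sign with the arrays set to 1 median for Olig2 and Mbp (0.019), Pdgfra and Mbp (0.046) and Mbp and Mag (-0.17), and with the mean over a gene's tested probe sets for Pdgfra and Mbp (0.0079), Sox10 and Mbp (-0.38) and Sox10 and Cnp (-0.055). With 1 array left out they spanned -0.23 to 0.40 for Sox10 and Cnp, -0.12 to 0.19 for Mbp and Mag, -0.62 to 0.28 for Olig2 and Cnp, -0.030 to 0.66 for Olig2 and Mag and -0.33 to 0.076 for Pdgfra and Mag. They spanned -0.48 to 0.55 for Olig1 and Pdgfra, -0.41 to 0.034 for Pdgfra and Mbp, -0.073 to 0.27 for Olig2 and Pdgfra, -0.54 to 0.0060 for Olig2 and Mbp and -0.34 to 0.087 for Pdgfra and Cnp. No correlation passed under any setting run. Signals of Mobp, Mog and the dim probe sets of Mbp, Cnp, Sox10 and Pdgfra were the dimmest here, and MAS5 values at that level limit what can be said of them.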
